A study of Homo sapiens with 8 samples.

Results

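The SR and TRA2 splicing factor genes SRSF1, SRSF2, SRSF3, SRSF6, SRSF7, SRSF11, TRA2A and TRA2B were examined as RNA targets of the polypyrimidine tract binding protein (PTB). Their peaks were chosen by position alone: every deposited peak on the strand of the gene that overlapped 1 of 8 stretches of the human build hg19 was taken. This gave 281 peaks of the 266317 in 5 peak lists. The PTB list made with UVA light held 140 of them, the PTB list made with UVC light 92, and the published PTB iCLIP list 41. The PTB list without UV held 5, and the list of the yellow fluorescent protein (YFP) with UVC held 3.

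Crosslinking and immunoprecipitation (CLIP) maps where a protein touches RNA in cells, and GoldCLIP is a form of it without the gel step. It was run in 293T cells, a line from human embryonic kidney, that carry either a Halo-PTB or a Halo-YFP transgene and kept under puromycin. The Halo tag bonds covalently to a ligand on beads, which pulls down the tagged protein with its RNA. The 8 samples form 4 groups of 2: Halo-PTB cells with UVA, Halo-PTB cells with UVC, Halo-PTB cells without UV and Halo-YFP cells with UVC. A group's 2 samples share a single pooled peak list. The iCLIP list pools a published PTB data set that the submitters processed again, per the design text. It belongs to none of the 8 samples. Its cells and its form of PTB were not checked here and may differ from those of GoldCLIP. Peak lists hold no expression values, so the cell type was not checked against markers. The tagged PTB is made from a transgene whose promoter is not given in the sources used here, and the cells also have their own PTB.

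SR proteins pair RNA-binding domains with a tail rich in arginine and serine, bind exons and help the spliceosome to use nearby splice sites. TRA2A and TRA2B are relatives that bind purine-rich exon enhancers. PTB binds pyrimidine-rich RNA and often acts the opposite way, by holding exons back. Genes of the SR and TRA2 families are known for unproductive splicing: many carry a conserved "poison" exon whose inclusion brings in an early stop and marks the transcript for decay, and the proteins use it to limit their own amounts.

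The loci lie on chr17:56078280-56084707 (SRSF1, minus strand), chr17:74730197-74733493 (SRSF2, minus), chr6:36562090-36572244 (SRSF3, plus), chr20:42086504-42092244 (SRSF6, plus), chr2:38970741-38978636 (SRSF7, minus), chr1:70671365-70717683 (SRSF11, plus), chr7:23544400-23571656 (TRA2A, minus) and chr3:185633694-185655924 (TRA2B, minus). They differ in length, with 3.297 kb for SRSF2 and 46.319 kb for SRSF11, and cover 129.32 kb together. No exon map of hg19 was used here, so positions are given as distances from the 5′ end of each locus. Same-strand peaks no more than 20 nt apart were joined and are called sites. The lists carry no read numbers, depth is unknown, and with 1 pooled list per group no spread between replicates and no test can be given. The intervals reflect counting error alone and take peaks or sites as independent, although peaks that touch are not. A peak needs RNA to be present, and RNA levels were not measured, so more binding and more transcript cannot be told apart.

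All 8 genes carried sites in all 3 PTB lists. Over the 8 loci there were 94 UVA sites, 79 UVC sites and 37 iCLIP sites, against 4 sites without UV and 2 in the YFP list. Set against the length of the lists, the picture was different: the loci held 0.134% of all UVA sites (exact 95% interval 0.108 to 0.164), 0.0981% of UVC sites (0.0777 to 0.122) and 0.0705% of iCLIP sites (0.0497 to 0.0972). They held 0.171% of the sites without UV (0.0466 to 0.437) and 0.185% of the YFP sites (0.0224 to 0.667). The control intervals are wide and hold the UVA and UVC values, so the share of a list that fell in these genes was not distinguishable between PTB and its controls at these numbers. No peak of any list lay on the opposite strand of a locus, and widening the loci by 1 kb on both sides added no site in any PTB list. RefSeq, in its GRCh38.p14 tables, places MFSD11 and MIR636 over SRSF2 and LOC101929185 over SRSF1. MFSD11 and LOC101929185 run on the opposite strand there.

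**Figure D1:**
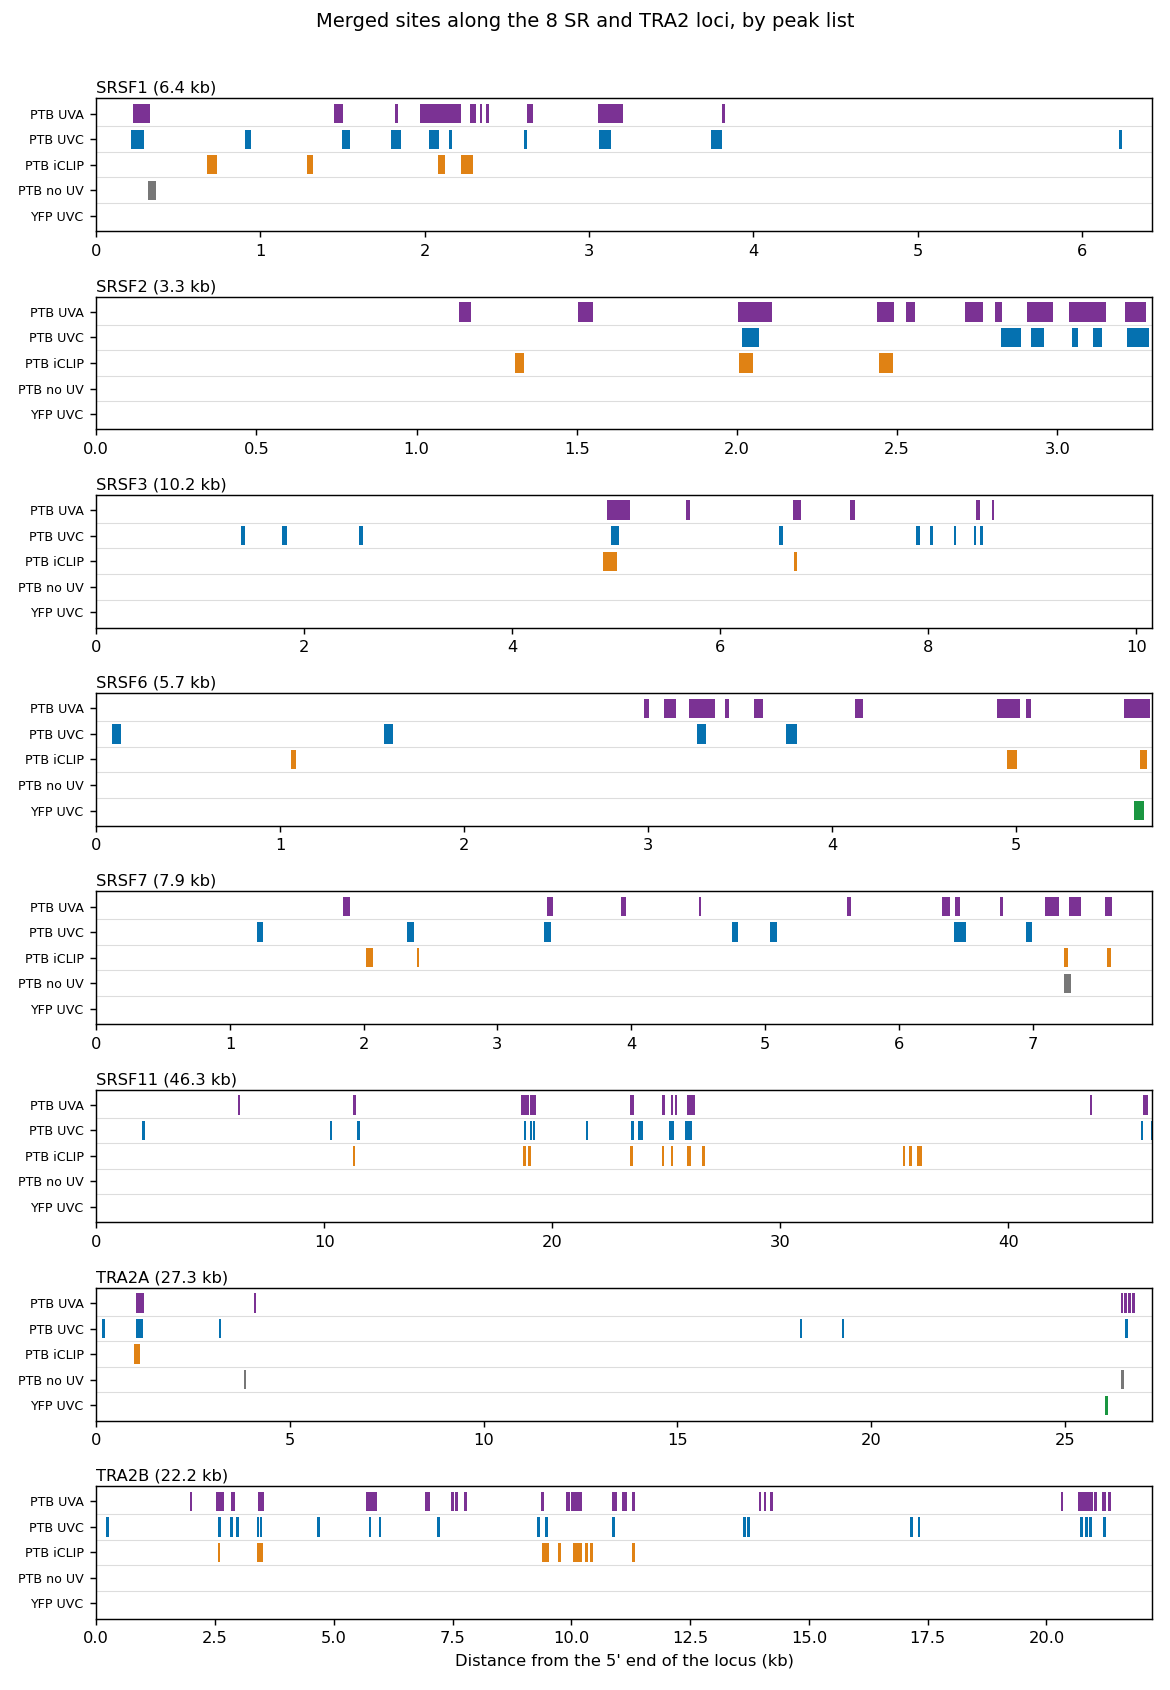
Merged sites along each locus, with the distance from the 5′ end in kb on the horizontal axis and 1 row per peak list. Very narrow sites are drawn at a minimum width. UVA and UVC sites are dense in the 3′ part of SRSF2, while 9 of the 10 UVC sites of SRSF3 miss every UVA site.

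Site density differed between the genes. SRSF2 had 3.03 UVA sites per kb (exact Poisson interval 1.45 to 5.58), followed by SRSF6 with 1.57, SRSF1 with 1.56, SRSF7 with 1.39 and TRA2B with 1.08. SRSF3 had 0.591 UVA sites per kb, SRSF11 0.389 and TRA2A 0.220 (0.0808 to 0.479). Neighbours in this order had overlapping intervals, but the interval of SRSF2 lay above those of SRSF3, SRSF11 and TRA2A. The divisor is the whole locus with its introns, and the order runs close to locus length. SRSF2, SRSF6, SRSF1 and SRSF7 are the shortest loci (3.297 to 7.896 kb). TRA2A (27.257 kb) and SRSF11 (46.319 kb) are the longest. Density therefore cannot be told apart from length here, and this was not tested. With UVA peaks below the median score of their list dropped, SRSF6 and SRSF7 kept 3 sites each, or 0.523 and 0.380 per kb, below TRA2B at 1.08. The intervals of SRSF2 and SRSF3 then overlapped (1.25 to 5.18 and 0.217 to 1.29). They also overlapped when peaks up to 50 nt apart were joined (0.854 to 4.37 and 0.217 to 1.29). In the UVC list SRSF2 was again first with 1.82 sites per kb and TRA2A last with 0.220. TRA2B had the most sites of any member in the UVA and UVC lists, 24 and 21, over 22.231 kb.

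The iCLIP list gave a similar order by density, but from few sites. SRSF2 was first with 0.910 sites per kb (3 sites, 0.188 to 2.66) and SRSF1 second with 0.622 (4 sites, 0.170 to 1.59). TRA2A was last with 0.0367. The order changed once iCLIP peaks below the median score of their list were dropped. SRSF2 and SRSF1 then kept 1 site each, SRSF2 (0.303 per kb) lay below TRA2B (0.315), and SRSF6 and SRSF7 had 0 sites. By number, SRSF11 had 12 of the 37 iCLIP sites and TRA2B 8. Every gene had fewer iCLIP sites than UVA sites, and the iCLIP peaks covered 1.71% of the loci, beside 4.81% for UVA and 3.07% for UVC.

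**Figure D2:**
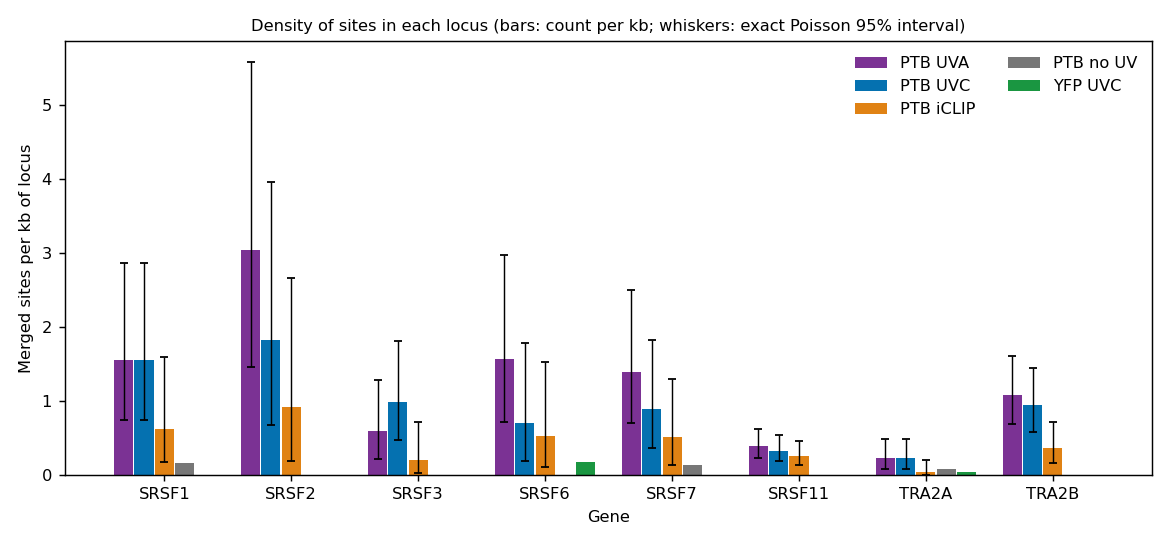
Merged sites per kb of locus (vertical axis) for each gene, with 1 bar per peak list. Whiskers are exact Poisson 95% intervals on the PTB bars and are left off the controls. SRSF2 has the tallest UVA bar (3.03 per kb) and TRA2A the shortest (0.220 per kb).

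The UVA list held more sites than the UVC list in 5 genes, as many in 2 (SRSF1 and TRA2A) and fewer in 1 (SRSF3). Over the 8 loci the ratio of UVA to UVC sites was 1.19 (exact interval 0.873 to 1.63), against 0.871 for the whole lists. The lower end of that interval nearly reaches the value of the whole lists, and each gene's own interval held 0.871. By nucleotides covered the ratio was 1.57, against 0.958 for the whole lists. The highest ratio among the genes was 2.25 in SRSF6, with 9 UVA and 4 UVC sites, and the lowest 0.600 in SRSF3, with 6 and 10.

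Peaks in these genes met each other across the PTB lists at higher shares than the peaks of the lists did as a whole. Of the 140 UVA peaks in the loci, 49 (35.0%, exact interval 27.1 to 43.5) overlapped a UVC peak by at least 1 nt, against 13.6% of all UVA peaks. Of the 92 UVC peaks, 39 (42.4%, 32.1 to 53.1) overlapped a UVA peak, against 9.61% of all UVC peaks. In the published map 26 of its 41 peaks (63.4%, 46.9 to 77.9) met a UVA peak, against 25.9% in the whole iCLIP list. Of the same 41 peaks, 13 (31.7%, 18.1 to 48.1) met a UVC peak, against 9.59%. These are not additional to the 26, since no iCLIP site in the loci met a UVC site without also meeting a UVA site. From the other side, 12 of the 92 UVC peaks (13.04%, 6.93 to 21.7) met an iCLIP peak, against 5.45% of all UVC peaks. For UVA peaks the share meeting iCLIP was 25% (35 of 140, 18.1 to 33.0), and this interval held the 20.4% of the whole list. By gene it lay below 20.4% in SRSF1 (15%), SRSF2 (18.2%), SRSF6 (16.7%) and SRSF7 (7.69%). It lay above in SRSF3 (45.5%), SRSF11 (47.8%), TRA2A (22.2%) and TRA2B (22.0%).

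**Figure D3:**
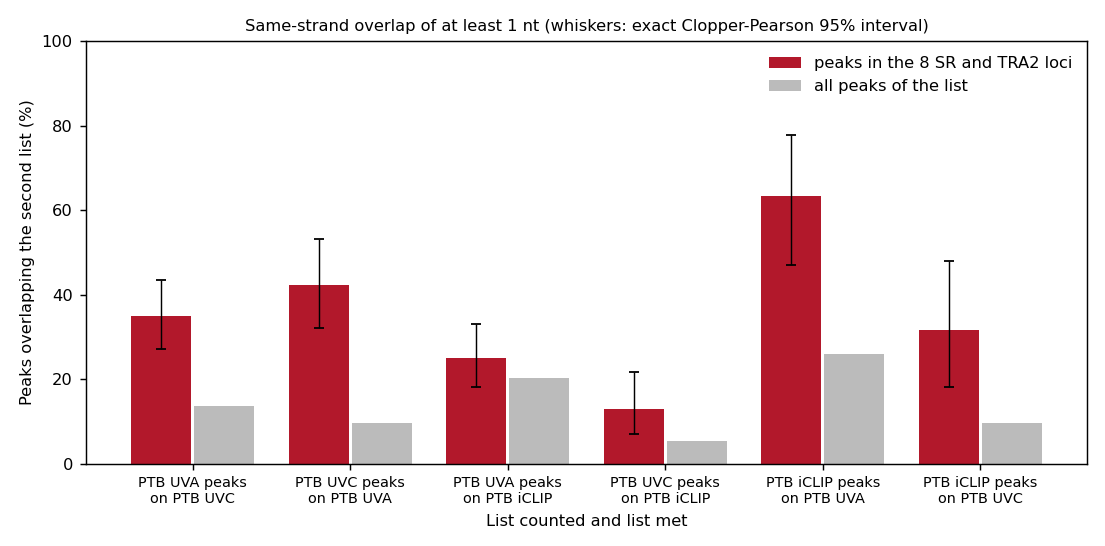
Share of peaks (%, vertical axis) that overlapped a peak of a second list on the same strand, for peaks in the 8 SR and TRA2 loci beside all peaks of the same list. Whiskers are exact Clopper-Pearson 95% intervals. The bars of the loci lie above those of the whole lists in all 6 pairs, but the whisker for UVA peaks on iCLIP reaches below the whole-list value of 20.4%.

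Distances between sites were also compared. The median gap to the next site in the loci was 212.5 nt for UVA, 555 nt for UVC and 547 nt for iCLIP, against 1775, 4593 and 2617 nt in the whole lists. These medians are unlike measures. Gaps in the loci were taken within a gene and are bounded by its length, while gaps of the whole lists also span the stretches between genes. Shorter gaps in the loci are therefore built in, and nothing is concluded from them. UVC sites lay a median of 17 nt from the nearest UVA site in the loci, against 5121 nt over the whole UVC list, and 52 of the 79 (65.8%) lay within 200 nt of one, against 20.7% of the list. For UVA sites 61 of 94 (64.9%) had a UVC site within 200 nt, against 27.8% of the list. With iCLIP the shares within 200 nt were 42 of 94 for UVA sites (44.7%, list 31.3%) and 23 of 79 for UVC sites (29.1%, list 13.3%). Of the 37 iCLIP sites, 29 (78.4%, list 38.4%) lay within 200 nt of a UVA site and 18 (48.6%, list 22.7%) within 200 nt of a UVC site. Overlapping sites count as within 200 nt, so these shares in part repeat the overlap. By site, 45.6% of UVC sites overlapped a UVA site and 33.0% of UVA sites a UVC site. With iCLIP the overlap was 24.5% of UVA sites and 15.2% of UVC sites. Of the iCLIP sites, 59.5% overlapped a UVA site and 27.0% a UVC site.

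Sites of the 3 PTB lists joined into 149 separate regions, of which 11 held sites of all 3 lists, 30 of 2 lists and 108 of 1 list. Of the 30, 19 combined UVA with UVC, 11 combined UVA with iCLIP, and no region combined UVC with iCLIP without UVA. Joining chains sites that do not touch each other. Counted on UVC sites, 1 site, in TRA2B, met an iCLIP site but no UVA site. The region counts have no whole-list value beside them. UVA alone gave 51 regions, UVC alone 42 and iCLIP alone 15. Counted on UVC sites, 11 of 79 (13.9%, exact interval 7.16 to 23.6) met sites of UVA and of iCLIP, against 3.57% of all UVC sites. None of the 11 lay on a control peak, but neither did any of the 92 UVC peaks in the loci, and only 1.01% of the whole UVC list did. SRSF11 had 4 of the 11 shared sites, TRA2B 3, and SRSF1, SRSF2, SRSF3 and TRA2A 1 each. SRSF6 and SRSF7 had none, from 4 and 7 UVC sites, too few to set them apart from the 3.57% of the list. Without SRSF11 the count was 7 of the remaining UVC sites. UVC sites that met neither other PTB list numbered 42 (53.2%), against 86.1% of the whole UVC list. Counted on UVA sites, 11 of 94 (11.7%, list 4.38%) met both other lists and 51 (54.3%, list 72.8%) met neither. Of the iCLIP sites 10 of 37 (27.0%, list 5.66%) met both and 15 (40.5%, list 70.9%) met neither.

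SRSF1, the founding SR protein and a general splicing activator, had 20 UVA, 10 UVC and 4 iCLIP peaks. Its UVA peaks were among the strongest of the family: 6 of 20 stood at 1000, the limit of a deposited score that is higher for smaller p-values. The widest of these, chr17:56082633-56082739, lay 1968 nt from the 5′ end and belonged to a UVA site of 252 nt built from 6 peaks (chr17:56082488-56082739). The UVC site chr17:56082621-56082679 (score 77) and the iCLIP peak chr17:56082586-56082627 (score 49) lay within it, and these were the site of SRSF1 shared by all 3 lists. A second UVA site at the limit, chr17:56081501-56081651, met a UVC site (chr17:56081576-56081649, score 63) but no iCLIP peak. The UVC peak with the highest score in the gene, 171, lay elsewhere, 6226 nt from the 5′ end at chr17:56078466-56078481, and was only 16 nt wide and met no other list. In all, 7 of the 10 UVC peaks and 10 of the 20 UVA peaks met the other arm.

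SRSF2 (also SC35), known as a marker of nuclear speckles, is the shortest of the loci and had 11 UVA, 6 UVC and 3 iCLIP peaks. UVA peaks covered 18.6% of it, the largest share in the family, beside 1.48% of TRA2A. All 6 of its UVC peaks met a UVA peak. Both arms were heaped toward the 3′ end: the densest 1 kb held 7 of 10 UVA sites and 5 of 6 UVC sites, and the UVC peaks with scores of 195 (chr17:74730209-74730274) and 120 (chr17:74730606-74730668) lay there. The UVA peak with the highest score, 904, was chr17:74730343-74730456, 3037 nt from the 5′ end. The iCLIP list had no site beyond 2442 nt, where its last site began. Its best peak, chr17:74731443-74731486 (score 72), formed the shared site with chr17:74731424-74731477 (UVC, score 70) and chr17:74731386-74731490 (UVA, score 576), about 2 kb from the 5′ end.

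SRSF3 (SRp20) and SRSF7 (9G8) are small SR proteins that also act as adaptors for mRNA export. SRSF3 had 11 UVA, 13 UVC and 3 iCLIP peaks, and 1 of the 13 UVC peaks (7.69%) met a UVA peak. This was the lowest such share among the 8 genes, and close to the 9.61% of the whole UVC list. All 3 iCLIP peaks did. Of its 10 UVC sites, 3 lay between 1391 and 2529 nt from the 5′ end, where the UVA and iCLIP lists had nothing, and 5 between 7881 and 8499 nt. The UVC site that met UVA lay near the middle of the gene. There, 5 UVA peaks formed a run of 225 nt (chr6:36566998-36567222, top score 845), the UVC peak chr6:36567043-36567117 had the gene's highest UVC score (107), and 2 iCLIP peaks formed chr6:36566964-36567099, the higher of them chr6:36566964-36567043 with a score of 666. That iCLIP score is in the top 0.838% of its list. A second UVA site (chr6:36568789-36568864), whose peaks stood at the score limit and of which chr6:36568824-36568864 was the wider, met an iCLIP peak with a score of 44 and no UVC peak.

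SRSF7 had 13 UVA, 8 UVC and 4 iCLIP peaks. Its highest scores were 133 in UVA (chr2:38976742-38976790, met by no other list), 50 in UVC (chr2:38972132-38972227, on a UVA peak) and 18 in iCLIP (chr2:38976569-38976622, met by none). Of its 13 UVA peaks 2 (15.4%, list 13.6%) met a UVC peak, and of its 8 UVC peaks 2 (25%, list 9.61%) met a UVA peak. None of its 7 UVC sites was common to the 3 PTB lists, against 3.57% of all UVC sites. UVC peaks of exactly 50 nt numbered 3 of 8 here and 8 of 22 in TRA2B, and 13 of 92 over the 8 loci (14.1%), against 11.5% of the whole UVC list. In the other PTB lists this width was rarer, at 4 of 140 UVA peaks (list 1.34%) and 1 of 41 iCLIP peaks (list 1.21%).

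SRSF6 (SRp55), an SR protein with a long arginine-serine tail, had 12 UVA, 7 UVC and 3 iCLIP peaks. Its 9 UVA sites all lay beyond the middle of the locus, from 2976 nt to the 3′ end. The UVC sites were spread, starting 87 nt from the 5′ end, and the iCLIP sites began at 1057 nt. The UVA peak with the highest score, 400, was the last of the gene (chr20:42092130-42092230), and it met the best iCLIP peak (chr20:42092176-42092215, score 23) and a YFP peak. Of the 12 UVA peaks of SRSF6, 1 (8.33%, list 13.6%) met a UVC peak. Of its 7 UVC peaks, 2 (28.6%, list 9.61%) met a UVA peak. None of its UVC peaks met an iCLIP peak, and the highest UVC score was 23 (chr20:42086591-42086601).

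SRSF11 (p54) is an SR-related protein reported, in mouse neural cells, to help the inclusion of neuronal microexons. It is the longest locus and had 23 UVA, 19 UVC and 13 iCLIP peaks. None of them lay on a control peak, against 1.04%, 1.01% and 0.601% of the whole lists. When each locus was cut into 10 equal parts from its 5′ end, parts 5 and 6 of SRSF11 together held 13 of 18 UVA sites, 10 of 15 UVC sites and 7 of 12 iCLIP sites. The 4 shared UVC sites also lie there. They are chr1:70690150-70690195, chr1:70696607-70696653, chr1:70697200-70697378 and chr1:70697433-70697443. The one of 179 nt had the highest UVC score of the gene (156) and met a UVA site with a score of 243 and an iCLIP site with a score of 152. The best iCLIP peak of the gene, chr1:70696194-70696259 (score 279), met a UVA peak and no UVC peak. The best UVA peak, chr1:70677620-70677650 (score 457), stood alone 6255 nt from the 5′ end. A group of 4 iCLIP sites between 35413 and 36123 nt from the 5′ end had no UVA or UVC site among them, and was the densest 1 kb of the iCLIP list in this gene.

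TRA2A and TRA2B bind the same kind of purine-rich enhancer, and TRA2B is known for promoting inclusion of the SMN2 exon whose skipping matters in spinal muscular atrophy. TRA2A had 9 UVA, 7 UVC and 1 iCLIP peak over 27.257 kb. Near its 5′ end, about 1 kb in, all 3 PTB lists met. The UVA site chr7:23570426-23570621 reached the score limit, the UVC site chr7:23570460-23570617 had a score of 113, and the only iCLIP peak of the gene, chr7:23570533-23570672, was 140 nt wide with a score of 675. That iCLIP score is in the top 0.821% of its list, and the UVC peak chr7:23570528-23570617 is in the top 1.62% of its own. A second UVA site, chr7:23567549-23567574 (score 523), lay 4082 nt from the 5′ end and met no other list, and the other 4 of the 6 UVA sites lay in the last of the 10 parts. There, the UVA peak chr7:23545067-23545135, at the score limit, met a UVC peak with a score of 46.

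TRA2B had 41 UVA, 22 UVC and 10 iCLIP peaks and no control peak. Its shared UVC sites lay between 2579 and 3458 nt from the 5′ end: chr3:185653301-185653345, and the neighbours chr3:185652446-185652466 and chr3:185652499-185652543. The neighbours lay on 1 UVA site of 134 nt at the score limit (chr3:185652385-185652518, with chr3:185652462-185652518 as its widest peak at the limit) and 1 iCLIP site (chr3:185652407-185652543, score 134), while their own UVC scores were 13 and 28. The iCLIP list was concentrated elsewhere, with 5 of its 8 sites within 1 kb starting 9450 nt from the 5′ end. Its best peak, chr3:185646398-185646549 (score 386), met a UVA and a UVC peak that did not touch each other. Toward the 3′ end, the last of the 10 parts held 5 of 24 UVA sites, 4 of 21 UVC sites and no iCLIP site. The best UVC peak lay there (chr3:185635153-185635210, score 55).

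The 2 relatives differed in density, at 1.08 UVA sites per kb (0.692 to 1.61) in TRA2B and 0.220 (0.0808 to 0.479) in TRA2A. UVC gave 0.945 sites per kb (0.585 to 1.44) in TRA2B and 0.220 in TRA2A (0.0808 to 0.479). In neither list did the intervals of the pair overlap. They did once UVC peaks scoring below the median of their list were dropped, with 13 sites in TRA2B (lower end 0.311 per kb) and 6 in TRA2A (upper end 0.479). In the whole iCLIP list they overlapped too, at 0.360 sites per kb in TRA2B (0.155 to 0.709) and 0.0367 in TRA2A (0.000929 to 0.204).

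Over the 8 loci the last of the 10 parts held 18 of 94 UVA sites (19.1%, exact interval 11.8 to 28.6), 11 of 79 UVC sites (13.9%, 7.16 to 23.6) and 3 of 37 iCLIP sites (8.11%, 1.70 to 21.9). These intervals overlap. The first part held 3 UVA, 6 UVC and 1 iCLIP sites. Where UVC sites met UVA sites in the loci, the midpoint of the UVA site lay downstream of the UVC midpoint in 22 of 36 pairs (61.1%, list 57.3%), with a median offset of 6 nt, against 5.5 nt over 9062 pairs of the whole lists. For iCLIP it lay downstream in 3 of 12 (25%, exact interval 5.49 to 57.2, list 42.3%), with a median of -18 nt, against -6 nt over 5035 pairs.

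Median scores over the 8 loci lay above those of the whole list in UVA and UVC, and near it in iCLIP. In the loci 115 of 140 UVA peaks (82.1%) scored above 100, against 47.3% of the UVA list, and the median was 243.5 against 92. In the UVC list 6 of 92 (6.52%) scored above 100, against 1.93%, with medians of 28 and 19. For iCLIP it was 14 of 41 (34.1%) against 24%, with medians of 49 and 47. At the score limit stood 14 UVA peaks (SRSF1, SRSF3, TRA2A and TRA2B), no UVC peak and no iCLIP peak, against 3.36%, 0.217% and 0.455% of the lists. SRSF6 and SRSF7 had the lowest medians in each PTB list, 61 and 64 in UVA, 16 and 19 in UVC, and 15 and 15 in iCLIP. In UVC the median of SRSF7 equalled that of the whole list, and TRA2B was next with 20. Their UVA medians lay below that of the whole list although their UVA site densities were among the higher ones. Scores depend on depth and on the caller, and were compared within a list only.

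**Figure D4:**
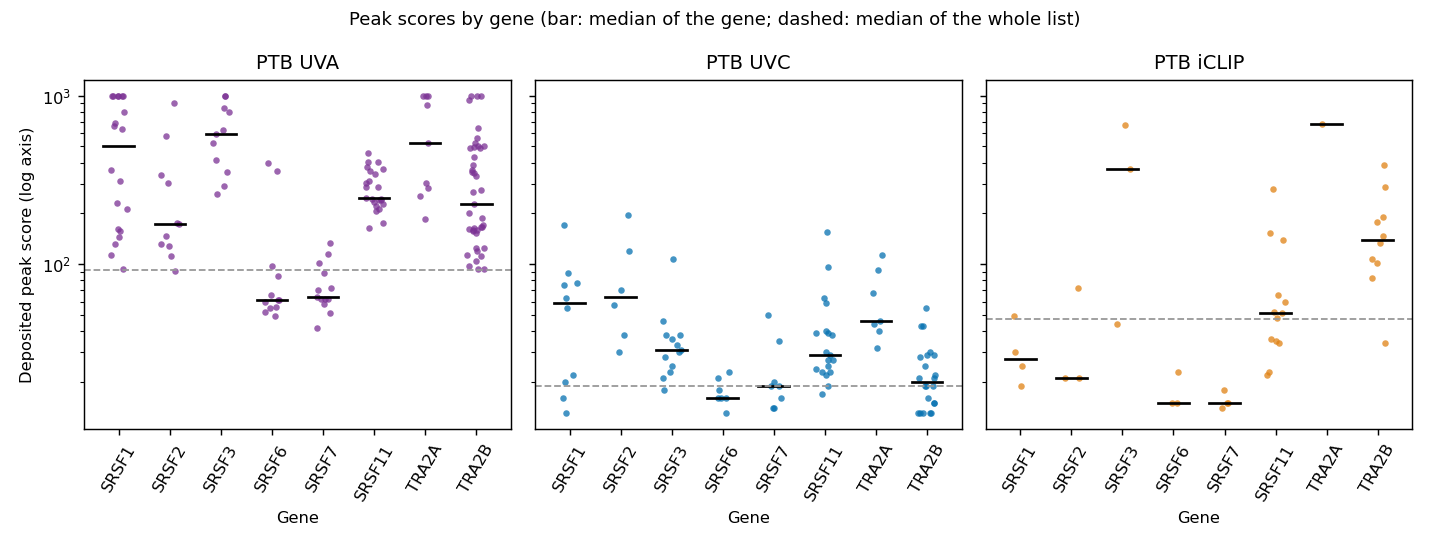
Deposited score of each peak (log axis) by gene, in the UVA, UVC and iCLIP lists from left to right. Points are peaks, black bars the median of the gene and dashed lines the median of the whole list. SRSF6 and SRSF7 have the lowest medians in all 3 panels (61 and 64 in UVA), while SRSF1, SRSF3, TRA2A and TRA2B hold the UVA peaks at 1000.

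There were 8 control peaks, in 4 of the genes, with scores of 16 to 29. Their medians were 17 without UV and 16 with YFP, beside 17 in each whole control list. PTB peaks on a control peak numbered 4 of 140 UVA peaks (2.86%, exact interval 0.784 to 7.15), 0 of 92 UVC peaks (upper end of the interval 3.93%) and 2 of 41 iCLIP peaks (4.88%), against 1.04%, 1.01% and 0.601% of the whole lists. Without UV, SRSF1 had chr17:56084341-56084390 (score 22), which touched a UVA peak with a score of 798 near the 5′ end. SRSF7 had the adjoining chr2:38971353-38971363, on a UVA peak with a score of 72, and chr2:38971364-38971402, on an iCLIP peak with a score of 15. TRA2A had chr7:23545142-23545191, touching a UVA peak with a score of 283, and chr7:23567789-23567839 (score 29), which met nothing. In the YFP list SRSF6 had chr20:42092143-42092198, overlapping the last UVA peak of the gene (score 400) and its best iCLIP peak. TRA2A had the adjoining chr7:23545549-23545567 and chr7:23545568-23545630, which met no other peak. SRSF2, SRSF3, SRSF11 and TRA2B had none in either control. Of the no-UV peaks in the loci 3 of 5 met a UVA peak (list 12.6%) and 1 an iCLIP peak (list 6.17%). Of the YFP peaks 1 of 3 met a UVA peak (list 21.3%) and 1 an iCLIP peak (list 9.22%). None of the 8 control peaks met a UVC peak, against 15.8% of the no-UV list and 25.1% of the YFP list. The exact intervals reach 52.2% for the 5 no-UV peaks and 70.8% for the 3 YFP peaks. Both list values lie inside them, so the absence sets these genes apart from neither list.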

How the data were processed

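Peak lists of PTB GoldCLIP (UVA, UVC, no UV), YFP GoldCLIP (UVC) and published PTB iCLIP were used as deposited. Per the submitters' processing notes, Bowtie 1.1.2 was used and hg19 and dm3 are the builds listed. Which program called the peaks, with which filters and pooling, is not given in the sources used here. Column 7 of the deposited lists is a score per peak, and column 8 a deposited p-value, none above 0.05. A deposited score of 0 beside a p-value of 0 was set to the limit of 1000. Starts were made 1-based. The depth per sample is unknown.

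Same-strand peaks no more than 20 nt apart were joined into sites, and overlap means at least 1 nt on the same strand. Shares carry exact Clopper-Pearson and counts exact Poisson 95% intervals, and the UVA to UVC ratio an interval from the exact binomial one. Whole-list values stand in place of a test beside the overlap, distance, width and score shares over the 8 loci. The whole lists are not limited to genes with sites of all 3 PTB lists, as the 8 loci are. Positions within loci and most counts for single genes have no whole-list value. Gaps, 200 nt distances, the densest 1 kb, 50 nt widths and midpoint offsets were measures added after the peaks had been seen, and the genes and lists were chosen with earlier results of these data known. Named peaks are every control peak, every UVC site shared by the 3 PTB lists and the top-scoring peak of each PTB list per gene (ties by width), given with the site that holds it where peaks were joined. Other peaks were named after their values were seen. Peak counts per gene were checked against bedtools 2.31.1 (the same in 40 of 40 counts), and overlap and merging were tested on simulated data. Alternatives covered merging, overlap, score, strand, locus edges and leaving out a gene. Scripts ran under Python 3.11.15 with scipy 1.17.1, numpy 2.4.6, matplotlib 3.10.9 and pandas 2.3.3.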

Additional observations from a re-analysis of the deposited data

How the results depend on the processing

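Total site and peak counts over the 8 loci stayed within 1.5 times under every alternative run, except in the iCLIP list, where keeping peaks at or above the median score left 18 sites and 22 peaks, with 0 sites in SRSF6 and SRSF7. The same score minimum left 3 of 9 UVA sites in SRSF6, 3 of 11 UVA sites in SRSF7, 1 of 4 UVC sites in SRSF6, which then had the lowest UVC density, and 13 of 21 UVC sites in TRA2B. Merging at 50 nt left 3 of 6 UVA sites in TRA2A, and SRSF1 (1.56 per kb) then lay above SRSF2 (1.21) in UVC. The share of UVA peaks meeting UVC was 19.3% with at least 50% of the peak covered (8.60% of the list) and 46.4% with midpoints within 50 nt (18.4%). The share of iCLIP peaks meeting UVC was 17.1% with 50% covered (5.48%) and 54.5% when peaks below the median score were dropped (10.8%). Of 84 overlap alternatives, 83 lay above their whole-list value, and the exception was UVA peaks on iCLIP at or above the median score (20.8% against 22.5%). UVA peaks on iCLIP without SRSF11 were barely above it (20.5% against 20.4%). The alternatives reuse the same peaks, and many only leave out 1 gene. Ignoring strand or counting repeated intervals once changed no share in the loci. The tally is therefore not a count of independent checks. Leaving out each gene in turn gave 7 (without SRSF11) to 11 shared UVC sites and a UVA to UVC ratio of 1.13 to 1.28. That ratio was 1.04 with merging at 50 nt and 1.42 among equal numbers of top peaks (whole lists 0.818 and 1.17). No paired analysis was possible because each group has 1 pooled list without replicate names. Site sequence and the other SR genes were not run, since no genome or gene positions of hg19 were used here. Counts of 1 to 24 sites per gene and list limit every comparison between genes.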
